A study of Homo sapiens with 6 samples.

Results

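Bidirectional protein-coding promoters, at which a pair of protein-coding genes starts head to head on opposite strands, were examined for acetylation of histone H3 at lysine 27 (H3K27ac) in AML cell lines. A pair was taken where the GENCODE canonical transcription start sites (TSSs) of both genes, on chromosomes 1 to 22 and X, pointed away from each other and lay at most 1000 bases apart. This gave 984 pairs from 1895 genes, or 9.49% of the 19970 protein-coding genes on these chromosomes. The TSSs of a pair were 11 to 1000 bases apart, with a median of 233.5 bases. The region of a pair ran from 2500 bases outside one TSS to 2500 bases outside the other, so that regions were 5012 to 6001 bases wide. The pairs were not all separate: 72 genes were in more than 1 pair, 160 regions held a further protein-coding TSS, and joining overlapping regions left 912. The comparison set was 15839 single promoters, defined as genes in no pair with no other protein-coding TSS within 5000 bases, each with 2500 bases on either side of its TSS.

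A bidirectional promoter is a stretch of DNA from which RNA polymerase II initiates in both directions, so that neighbouring genes share the same open, nucleosome-poor space. Such promoters are usually rich in CpG dinucleotides, seldom carry a TATA box, and are frequent among housekeeping genes of DNA repair, chromatin and mitochondria. H3K27ac is deposited by CBP and p300 on the nucleosomes that flank active promoters and enhancers, and ANP32B is an acidic histone chaperone whose family has been linked to histone acetylation.

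The study measured H3K27ac by CUT&Tag, in which an antibody tethers the transposase Tn5 to the modified nucleosomes, and asked how it changed after ANP32B was depleted. The lines were Kasumi-1, derived from an AML with the RUNX1::RUNX1T1 fusion, and MV4-11, derived from a leukemia with a KMT2A fusion. Each carried a lentiviral hairpin and was selected with puromycin: sh-NC, a control hairpin (NC, which the labels call untreated), or a hairpin against ANP32B (sh-ANP32B, labelled ANP32B knockdown). The labels do not say which of the study's hairpins was used. There was 1 peak list for each of the 4 groups, and no spread between replicates could be computed. All differences below therefore describe these libraries, and no difference was tested. The 95% Wilson intervals given with shares treat promoters as independent and cover counting error within a list only. In these bulk libraries, fewer acetylated cells and less acetylation per cell cannot be told apart.

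Sequences from the space between the TSSs are shown for pairs that the results below return to. They are reference sequence (hg38, plus strand) and contain no GENCODE exon, so that some are shorter than the whole space. Capitals mark GGGCGG (the SP motif), CCAAT (NF-Y), TGTGGT (RUNX) and their reverse complements. SARS2/MRPS12 (chr19:38930764-38930943) and COL4A1/COL4A2 (chr13:110307158-110307257) are textbook head-to-head pairs, with and without H3K27ac. MRE11/ANKRD49 (chr11:94493886-94493978) had a peak in both NC libraries and in neither sh-ANP32B library. POLE3/C9orf43 (chr9:113410676-113410741) and TMEM53/ARMH1 (chr1:44674482-44674691) were among the pairs with the largest changes in width. MRPL14/TMEM63B (chr6:44127453-44127553), chosen after its values were seen, was left by the peak at both TSSs in both lines.
SARS2/MRPS12: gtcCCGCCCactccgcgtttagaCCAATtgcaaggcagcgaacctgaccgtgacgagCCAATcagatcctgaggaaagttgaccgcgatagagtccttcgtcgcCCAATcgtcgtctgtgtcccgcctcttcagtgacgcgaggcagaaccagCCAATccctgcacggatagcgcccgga
COL4A1/COL4A2: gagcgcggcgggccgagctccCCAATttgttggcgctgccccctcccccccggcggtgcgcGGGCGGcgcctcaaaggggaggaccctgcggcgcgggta
MRE11/ANKRD49: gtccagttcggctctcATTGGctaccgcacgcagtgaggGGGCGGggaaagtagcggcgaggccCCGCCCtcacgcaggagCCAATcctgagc
POLE3/C9orf43: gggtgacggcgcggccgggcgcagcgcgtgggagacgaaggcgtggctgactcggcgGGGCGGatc
TMEM53/ARMH1: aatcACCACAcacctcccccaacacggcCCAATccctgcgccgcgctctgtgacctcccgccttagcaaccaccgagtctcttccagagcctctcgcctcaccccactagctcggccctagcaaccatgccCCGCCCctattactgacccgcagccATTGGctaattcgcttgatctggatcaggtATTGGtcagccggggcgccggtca
MRPL14/TMEM63B: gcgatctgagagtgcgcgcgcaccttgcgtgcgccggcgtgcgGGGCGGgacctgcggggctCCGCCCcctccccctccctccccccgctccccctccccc

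GGGCGG or its reverse complement was present in each of the 6 stretches shown, whose GC content reached 81.2%. Further stretches were taken but are not shown. Of these, HSDL1/DNAAF1 and MMUT/CENPQ held this motif, while ZAR1L/BRCA2, C11orf21/TSPAN32 and PSMD10/ATG4A did not. The 6 stretches therefore do not show how common it is. Over all pairs, 72.5% held it in the window searched below. SARS2/MRPS12 held 4 CCAAT motifs and 1 SP motif, and MRE11/ANKRD49 held 2 of each. MRPL14/TMEM63B held 2 SP motifs and none of the other motifs. These matches are descriptions of the letters and do not show that a factor was bound.

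The 4 lists held 22112 to 24491 peaks on chromosomes 1 to 22 and X, and the median peak was wider in Kasumi-1 (1045 bases in NC and 980 in sh-ANP32B) than in MV4-11 (815 and 742). The smallest listed peak also differed, from 275 to 357 bases. The lists gave no heights or read counts, so the depth of each library is unknown, and its part in the results was not tested. The myeloid factor SPI1 had 3008 to 3127 bases under peaks at its promoter in every library. The markers of the lines did not follow the labels. Of the Kasumi-1 markers RUNX1T1, POU4F1 and KIT, 0 of 3 had a promoter peak in any library. The MV4-11 marker HOXA9 had 4335 bases in NC cells of Kasumi-1 and 769 in those of MV4-11, and FLT3 had 2028 and 299. HOXA9 and FLT3 thus went against the labels, while the MV4-11 marker MEIS1 was close, with 3103 and 3337 bases. The T cell marker CD3E and the B cell factor PAX5 had none. The lines are named here as labelled.

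Most pairs carried H3K27ac. A peak overlapped 838 of the 984 pairs (85.2%, 95% interval 82.8 to 87.2) in Kasumi-1 NC and 821 (83.4%, 81.0 to 85.6) in Kasumi-1 sh-ANP32B. The numbers were lower in MV4-11, with 648 pairs (65.9%, 62.8 to 68.7) in NC and 517 (52.5%, 49.4 to 55.6) in sh-ANP32B. The shares among single promoters were 41.8%, 39.4%, 31.2% and 25.1% in the same order. The pairs were thus above the single promoters in all 4 libraries, by 27.4 to 44.1 percentage points. They remained above them in each library under the 11 alternative windows, peak filters and sets of promoters that were tried, with the smallest difference being 11.1 points.

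The pairs also differed from single promoters in base composition, so each class was set beside its like. A promoter was called CpG-rich where the 300 bases around it had a GC content of at least 50% and an observed over expected CpG ratio of at least 0.6. This held for 856 pairs (87.0%) and 63.1% of single promoters. In Kasumi-1 NC, 86.2% of CpG-rich pairs and 57.6% of CpG-rich single promoters had a peak. In MV4-11 NC the shares were 66.2% and 41.7%. Outside this class the gap was wider, as 78.1% of 128 pairs and 14.7% of 5838 single promoters had a peak in Kasumi-1 NC. Single promoters with a divergent lncRNA, a long non-coding RNA that starts within 1000 bases on the other strand, lay between, with a peak at 67.3% in NC cells of Kasumi-1 and 50.1% in those of MV4-11. With CpG-rich promoters alone, these shares were 70.5% and 52.2%. A pair has more annotated starts than a single promoter, and the part this plays in the shares was not tested.

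**Figure D1:**
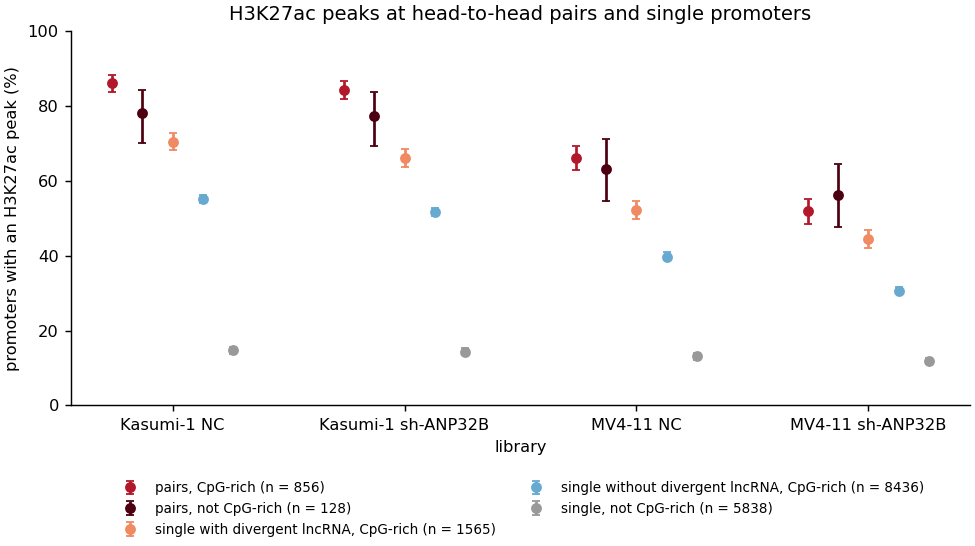
Share of promoters with an H3K27ac peak (%, vertical axis) in each of the 4 libraries (horizontal axis), by promoter class; points are shares and bars are 95% Wilson intervals. CpG-rich pairs lie highest in the first 3 libraries (86.2% for NC cells of Kasumi-1, 66.2% for those of MV4-11), and single promoters that are not CpG-rich lie lowest in all 4.

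The amount of acetylated sequence at occupied promoters was similar in both classes. The median number of bases under peaks was 1581 at pairs and 1456 at single promoters in the Kasumi-1 control. For the MV4-11 control it was 1058 and 1046. By the mean over the 4 libraries, which the wider Kasumi-1 peaks dominate, the most extended acetylation lay over HCFC1/TMEM187, where HCFC1 encodes a cofactor of herpesvirus and cell cycle transcription, with 5765, 5724, 3002 and 2765 bases in Kasumi-1 NC, Kasumi-1 sh-ANP32B, MV4-11 NC and MV4-11 sh-ANP32B. This order of the 4 libraries is kept wherever 4 values are listed below. STX10/IER2, with the immediate early gene IER2, had 5037, 5037, 3804 and 2763 bases. NFKBID/HCST, an inhibitor of NF-kappa-B beside the adaptor DAP10, had 5087, 5048, 2535 and 3366 bases. Both Kasumi-1 libraries exceeded both MV4-11 libraries at each of these pairs. Within MV4-11 alone the highest values were at ST7L/CAPZA1, with an actin capping protein, which had 2980, 2998, 4889 and 4627 bases and was looked up after the values were seen.

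Peaks lay differently over paired and single genes. At a paired gene with a peak, the 2500 bases upstream of its TSS, which run through the shared space into the partner gene, held more acetylated sequence than the 2500 bases downstream. In Kasumi-1 NC the medians were 891 bases upstream and 624 downstream over 1610 paired genes. The order was the other way at the 6622 single promoters with a peak, with 541 bases upstream and 858 downstream. Only 32.8% of paired genes (30.5 to 35.1) and 70.0% of single promoters (68.9 to 71.1) had more bases downstream. Promoters with a divergent lncRNA were intermediate at 59.9%. The corresponding shares in MV4-11 NC were 37.6%, 66.7% and 59.1%. The upstream side of a paired gene contains the partner's TSS by construction.

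**Figure D2:**
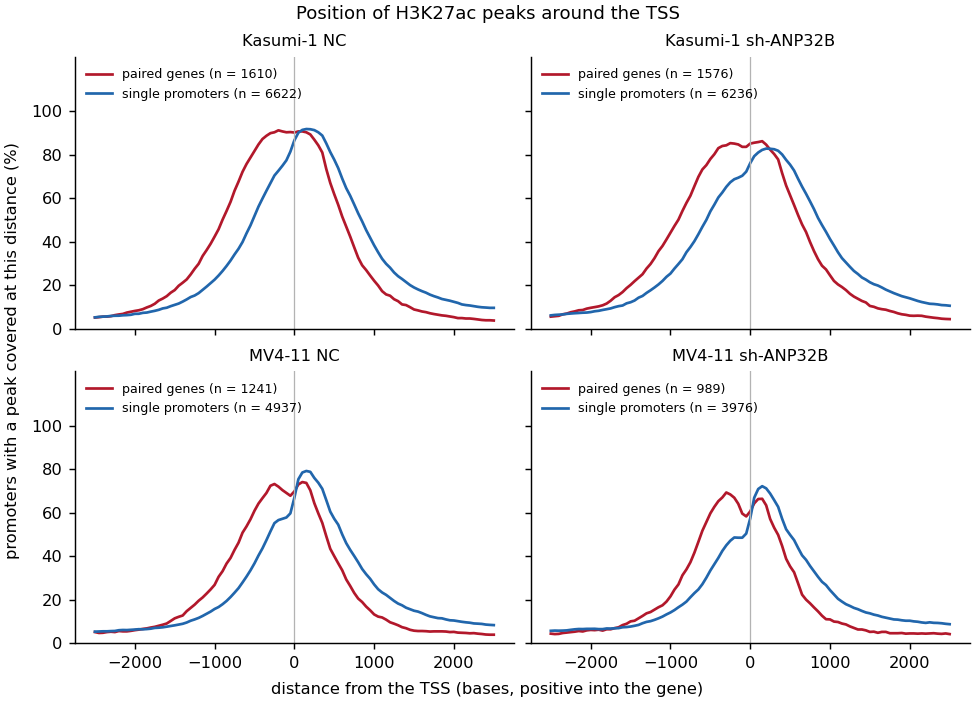
Share of promoters covered by a peak (%, vertical axis) at each distance from the TSS (bases, positive into the gene, horizontal axis), among paired genes and single promoters with a peak in the window; 1 panel per library with n in its legend. Coverage extends further upstream at paired genes and further downstream at single promoters, and in both MV4-11 panels the paired genes show a dip close to the TSS.

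Peaks usually bridged the pair. In Kasumi-1 NC, 1 peak covered both TSSs at 724 of the 838 occupied pairs (86.4%, 83.9 to 88.6). After knockdown the share was 79.5% in this line. In MV4-11 the shares were 59.6% before and 48.0% after knockdown. Separate peaks over each TSS were rare, with 3 pairs for Kasumi-1 and 1 for MV4-11 among the NC libraries. In NC cells of Kasumi-1 at 48 pairs (5.73%), and in those of MV4-11 at 131 (20.2%), neither TSS was under a peak although a peak lay in the region. Bridging was less frequent at wider pairs. In Kasumi-1 NC it was seen at 94.8% of pairs with TSSs 1 to 100 bases apart and 72.3% of those over 600 bases apart. In MV4-11 NC these shares were 76.3% and 36.4%. A wider space takes a longer peak to bridge by construction.

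**Figure D3:**
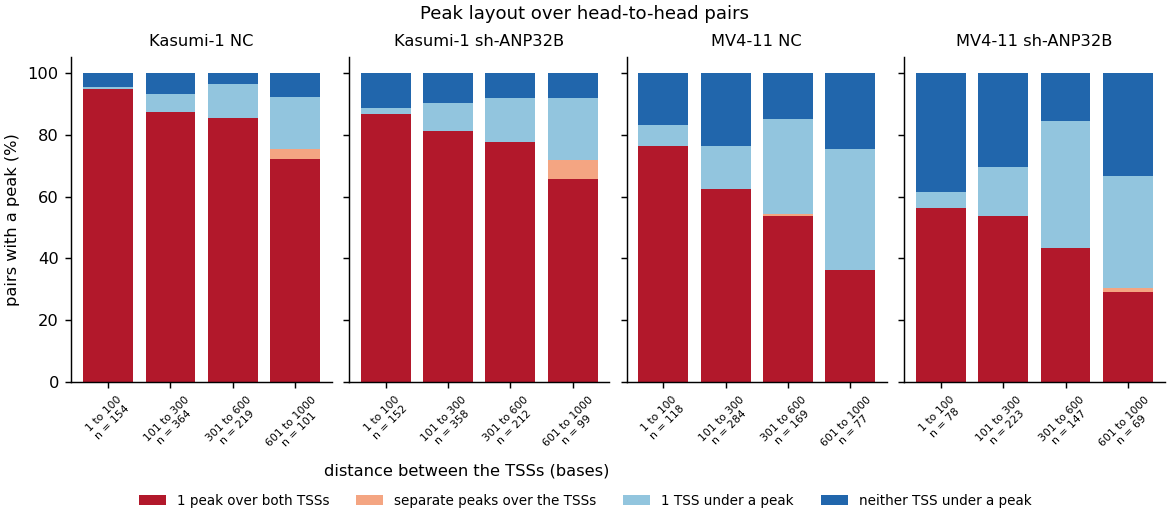
Layout of peaks over the occupied pairs (%, vertical axis, stacked bars) by the distance between the TSSs (bases, horizontal axis, with the number of occupied pairs), 1 panel per library. The share with 1 peak over both TSSs decreases from left to right in each panel, from 94.8% to 72.3% for NC cells of Kasumi-1 and from 76.3% to 36.4% for those of MV4-11.

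The extent of acetylation inside the paired genes was compared next. Peaks reached into both genes at 732 of 838 pairs (87.4%) in Kasumi-1 NC and into only 1 gene at 105 (12.5%). In MV4-11 NC these were 418 (64.5%) and 221 (34.1%) of 648 pairs. The better covered gene had a median of 848 bases and its partner 424 in the Kasumi-1 control, and the MV4-11 control had 660 and 220, where the order follows from sorting the sides within each pair. The same gene had the larger side in both NC libraries at 470 of 624 pairs (75.3%, 71.8 to 78.5). Within a line, NC and knockdown had the same larger side at 88.7% of Kasumi-1 pairs and 84.5% of MV4-11 pairs.

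At 4 pairs, 1 gene held at least 1000 acetylated bases and its partner 0 in every library. CDC42SE1/MLLT11, an effector of CDC42 beside a gene fused to KMT2A in leukemia, had 2501, 2501, 1945 and 1391 bases on the CDC42SE1 side. CCPG1/PIERCE2 had 2019, 2501, 1129 and 1072 bases on the side of CCPG1, a receptor for autophagy of the endoplasmic reticulum. PI4KA/SNAP29, a phosphatidylinositol kinase beside a SNARE protein, had 1471, 1101, 1672 and 1538 bases inside PI4KA, with neither TSS under a peak. CCDC78/HAGHL had 1786, 1791, 1069 and 1123 bases on the HAGHL side. These pairs were selected for this pattern.

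The letters around the pairs were those of CpG-island promoters. The median GC content of 300 bases centred on a pair was 64.0%, close to the 63.7% of single promoters, while the median CpG ratio was higher at 0.880 against 0.759. The window of a single promoter had the same length but another position, from 250 bases before its TSS to 50 after. Both strands of these windows were searched. The ETS motif CCGGAAG was present at 30.8% of pairs (28.0 to 33.7), 11.7% of single promoters and 14.1% of all protein-coding promoters. Among CpG-rich promoters alone the shares were 32.9% for pairs and 16.4% for single promoters. The NRF1 motif GCATGCGC was present at 7.42% of pairs and 3.82% of single promoters, and the YY1 motif ATGGCGG at 12.4% and 6.94%. CCAAT occurred at 41.8% and 35.0%, the CREB motif TGACGTCA at 4.37% and 2.55%, and the E-box CACGTG at 10.8% and 8.42%. The TATA motif TATAAA went the other way, at 4.47% of pairs and 10.5% of single promoters. GGGCGG was at 72.5% and 60.3%, but at 78.0% and 82.2% among CpG-rich promoters. The motif TGTGGT, bound by RUNX factors, was at 10.6% and 11.0%. Among CpG-rich promoters its order was the other way, at 9.11% of pairs and 7.15% of single promoters. The E-box was closer there, at 11.7% and 10.3%. The order was kept there for NRF1 (8.41% and 5.51%), YY1 (13.8% and 9.96%), CCAAT (40.9% and 33.3%), CREB (4.79% and 3.47%) and TATA (2.57% and 4.31%). The shares over all protein-coding promoters were 4.25% for NRF1, 7.83% for YY1, 36.0% for CCAAT, 2.69% for CREB, 8.75% for the E-box, 9.73% for TATA, 61.3% for GGGCGG and 10.7% for TGTGGT. For paired genes in the window of single promoters, the shares were 31.7% for ETS, 15.9% for YY1, 3.85% for TATA and 9.08% for TGTGGT. The letters of some motifs overlap, as GGCGG is common to the SP and YY1 motifs and ACGT to the CREB motif and the E-box.

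Occupancy was close in pairs with and without the ETS motif. In Kasumi-1 NC, 85.5% of pairs with the motif and 85.0% without it were occupied. In MV4-11 NC these shares were 67.3% and 65.2%. Among MV4-11 NC peaks, 19.6% (14.7 to 25.6) were absent after knockdown at pairs with the motif and 23.2% (19.5 to 27.3) at pairs without it. The RUNX motif gave 13.6% (7.34 to 23.9) and 23.0% (19.8 to 26.6), and NRF1 gave 12.5% (5.86 to 24.7) and 22.8% (19.7 to 26.4). The intervals overlap in each case.

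Kasumi-1 held nearly all of the pairs that MV4-11 held. Of the 648 pairs with a peak in MV4-11 NC, 635 (98.0%) also had a peak in Kasumi-1 NC, whereas 75.8% of the Kasumi-1 pairs had a peak in MV4-11. Among single promoters these shares were 95.4% and 71.1%. All 4 libraries had a peak at 496 pairs (50.4%, 47.3 to 53.5), and 126 pairs (12.8%) had none in any library. Of the single promoters, 22.3% and 55.9% did so, respectively. Both Kasumi-1 libraries and neither MV4-11 library had a peak at 174 pairs (17.7%, 15.4 to 20.2), against 8.60% of single promoters. The reverse was seen at 3 pairs (0.305%), against 0.612% of single promoters. Where both NC libraries had a peak, Kasumi-1 had more bases under it at 502 of 635 pairs (79.1%), with medians of 1705 and 1078 bases.

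The pairs with the widest peaks in Kasumi-1 alone had 2764 to 3682 bases. GYS1/RUVBL2, muscle glycogen synthase beside an ATPase of chromatin remodelling complexes, had 3276 and 3110 bases in Kasumi-1. CENPX/LRRC45, a kinetochore protein beside a centrosome linker, had 3682 and 2764 bases. MOB3A/IZUMO4 had 3368 and 2783 bases. The 3 pairs with peaks in MV4-11 alone were narrow. CCDC59/METTL25 had 743 and 709 bases, DEFB124/REM1 had 562 and 399, and FAM161B/COQ6, with a gene of coenzyme Q synthesis, had 345 and 278.

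After ANP32B knockdown, few pairs in Kasumi-1 lost or gained a peak. A peak was lost, meaning present in NC and absent in sh-ANP32B, at 27 of 838 pairs (3.22%, 2.22 to 4.65). The background over all promoter regions was 7.08%, and the share of single promoters was 7.75% (7.13 to 8.42). A peak was gained at 10 of 146 pairs with none in NC (6.85%, 3.76 to 12.1), with a background of 1.54%. At the 811 pairs with a peak in both libraries, the median log2 ratio of bases under peaks was 0.01 (quartiles -0.10 and 0.13), and it was 0.00 over all promoter regions. The bases were at least 1.5-fold lower at 65 pairs (8.01%) with a background of 8.68%, and at least 1.5-fold higher at 23 (2.84%) with a background of 3.47%. These last shares were near their backgrounds.

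In MV4-11 the knockdown library had fewer and narrower peaks at pairs. A peak was lost at 143 of 648 pairs (22.1%, 19.0 to 25.4), beside a background of 24.5% and 24.3% of single promoters (23.2 to 25.6). It was gained at 12 of 336 pairs (3.57%, 2.05 to 6.14), with a background of 2.43%. The median log2 ratio at the 505 pairs kept was -0.27 (quartiles -0.73 and -0.06), as it was over all promoter regions. The bases were at least 1.5-fold lower at 154 pairs (30.5%) with a background of 29.9%, and at least 1.5-fold higher at 17 (3.37%) with a background of 4.28%. Peaks were narrower in sh-ANP32B at 78.6% of the kept pairs and at 75.5% of all kept promoter regions. The shares lost and the shares past 1.5-fold were near their backgrounds in this line.

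**Figure D4:**
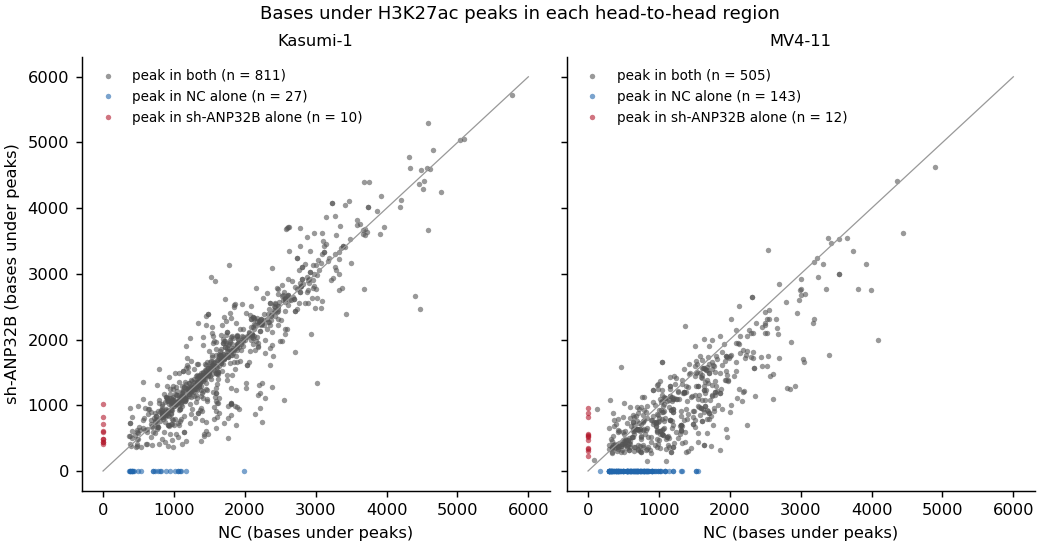
Bases under H3K27ac peaks in each pair's region in NC (horizontal axis) and sh-ANP32B (vertical axis), 1 point per pair, Kasumi-1 on the left and MV4-11 on the right, with the line of equal values. Kasumi-1 pairs lie around the line (median log2 ratio 0.01), and MV4-11 pairs lie mostly under it (-0.27) with 143 pairs at 0 in sh-ANP32B.

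Loss was concentrated at pairs with few bases under NC peaks, which measure width and not height. Single promoters showed the same, with 0.0632% lost in the highest class in Kasumi-1 and 2.24% in MV4-11. Lost pairs had a median of 710 NC bases in Kasumi-1 and 622 in MV4-11, against 1599 and 1294 at kept pairs. When promoters were divided at the quartiles of NC bases, 13.8% (9.11 to 20.3) of pairs in the lowest class (up to 958 bases) lost their peak in Kasumi-1, compared with 24.0% (22.1 to 26.1) of single promoters. In the highest class it was 0 of 209 pairs, which allows up to 1.80% by the Wilson interval. In MV4-11, 49.3% (41.3 to 57.3) of pairs in the lowest class (up to 628 bases) and 0 of 154 in the highest lost it. The single promoters of the lowest MV4-11 class stood at 54.4% (51.6 to 57.1). In the next class (up to 1046 bases) the order was the other way, with 34.9% (28.2 to 42.3) of pairs and 30.1% (27.6 to 32.7) of single promoters.

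In MV4-11 the lost share decreased with the distance between the TSSs. It was 34.7% (26.8 to 43.7) at 1 to 100 bases, 22.9% (18.4 to 28.1) up to 300, 16.0% (11.2 to 22.2) up to 600 and 13.0% (7.21 to 22.3) up to 1000. In Kasumi-1 it was 3.25%, 3.30%, 3.20% and 2.97%. The median NC bases in MV4-11 went the opposite way, with 847, 1027, 1185 and 1372 over the same classes. Among pairs with at most 1046 NC bases the lost shares were 52.1%, 39.6%, 39.1% and 29.6%, and among those with more they were 6.67%, 4.44%, 0% and 4.0%. Without pairs that held a further TSS or shared a gene, the 1 to 100 class stood at 28.3% (20.1 to 38.2) and the others at 24.7%, 16.3% and 12.5%. These further splits were chosen after the values were seen.

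**Figure D5:**
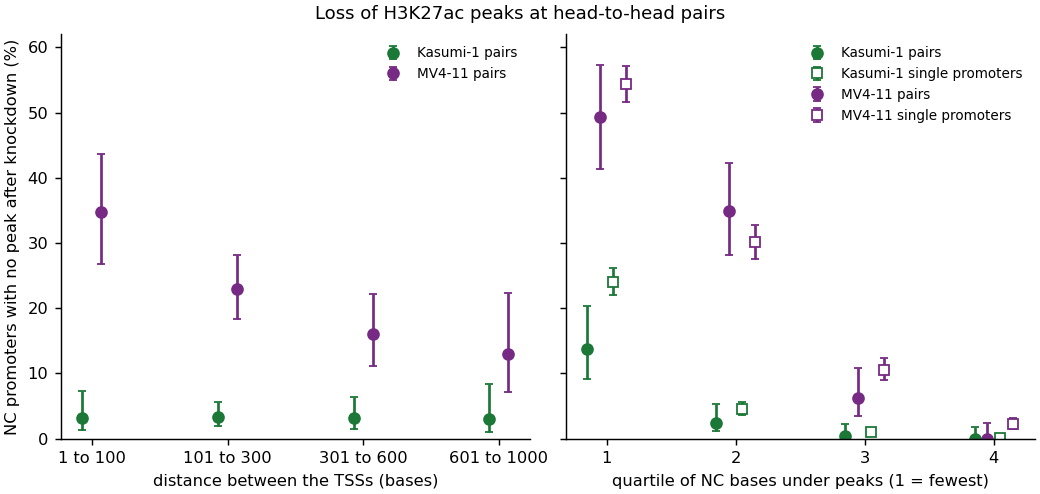
Share of NC-occupied promoters with no peak in sh-ANP32B (%, vertical axis) by the distance between the TSSs of a pair (bases, left) and by quartile of NC bases under peaks (right, quartiles of all promoters in the line); points are shares and bars 95% Wilson intervals. MV4-11 pairs run from 34.7% at the closest TSSs to 13.0% at the widest, and in the right panel all sets decrease from quartile 1 to 4.

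At some pairs that kept a peak, it no longer covered the shared space. Of the 724 pairs bridged by 1 peak in Kasumi-1 NC, 630 (87.0%, 84.4 to 89.3) were still bridged in sh-ANP32B, 46 kept 1 TSS under a peak, 37 kept a peak but had neither TSS under it, and 10 had no peak. The 37 pairs had a median GC content of 73.7%, compared with 63.3% at those still bridged. Divided into 3 classes of GC content, 96.7% (93.6 to 98.3), 89.6% (85.1 to 92.8) and 74.7% (68.8 to 79.8) were still bridged, from the lowest to the highest. In MV4-11, 229 of 386 bridged pairs (59.3%, 54.4 to 64.1) were still bridged, and the shares by GC class were 72.2% (64.0 to 79.1), 53.6% (44.9 to 62.1) and 51.6% (43.0 to 60). Summed bases were then compared over the pairs with a peak in both libraries of a line, which leaves out the lost pairs. In Kasumi-1 the bases in the shared space were 0.916 times those in NC, while those inside the genes were 1.01 times. In MV4-11 these ratios were 0.870 and 0.775. Single promoters lost coverage of their TSS as well. Of those with the TSS under an NC peak, 80.6% (79.5 to 81.6) kept it so in Kasumi-1 and 62.7% (61.1 to 64.4) in MV4-11, where a single TSS and not a whole space had to be covered. Over single promoters with a peak in both libraries, the summed bases in Kasumi-1 were 0.970 times those in NC downstream and 0.987 times upstream. In MV4-11 they were 0.819 and 0.799 times. GC content moved with these shares, and its part in them was not tested.

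At 5 pairs the peak bridged both TSSs in both NC libraries and covered neither in both sh-ANP32B libraries, out of 372 bridged in both NC libraries. They were picked out after their values were seen. MRPL14/TMEM63B, a mitochondrial ribosomal protein beside an ion channel, had 1762, 498, 1012 and 349 bases, and what remained in sh-ANP32B lay inside MRPL14 in both lines. PSME4/ACYP2, with the proteasome activator PA200, had 1459, 742, 1069 and 659 bases. ZDHHC3/EXOSC7, with a subunit of the RNA exosome, had 1748, 1461, 920 and 709 bases. ARFIP2/TIMM10B, with an import chaperone of mitochondria, had 1149 NC bases in Kasumi-1 and 1152 in MV4-11, with 0.523 and 0.671 times as many after knockdown, and the same region is listed for ARFIP2 with ENSG00000283977. All 4 regions were lower in sh-ANP32B than in NC in each line, which the way they were picked favours. Counted by line, 37 of 724 bridged pairs in Kasumi-1 and 52 of 386 in MV4-11 kept a peak that covered neither TSS.

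The textbook pairs showed the range of behaviours. Of 17 such pairs listed, 15 met the rule, and ANP32B itself was in no pair. HSPD1/HSPE1, the chaperonin of the mitochondrial matrix and its cochaperone, had 2208, 2138, 1010 and 611 bases under peaks. GART/SON, a trifunctional enzyme of purine synthesis beside a splicing factor, had 2525, 2666, 2498 and 2414. PPAT/PAICS, both enzymes of purine synthesis, had 2958, 2904, 292 and 0. Both purine pairs had more than 2500 bases in Kasumi-1, while in MV4-11 PPAT/PAICS had 292 bases or fewer.

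The 4 textbook pairs with genome maintenance genes given here had a peak in all 4 libraries. NPAT/ATM, a histone gene activator beside the kinase of the DNA damage response, had 1363, 1458, 497 and 592 bases. ZAR1L/BRCA2, with a gene of homologous recombination, had 2217, 2248, 2520 and 2308. TMEM258/FEN1, with the flap endonuclease of replication, had 1323, 1409, 1274 and 1220. None of these 3 pairs differed by 1.5-fold between NC and knockdown in either line. PRKDC/MCM4, a DNA repair kinase beside a subunit of the replicative helicase, had 3043, 3061, 1779 and 1593.

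Pairs of translation and metabolism genes differed among themselves. SARS2/MRPS12, a mitochondrial seryl-tRNA synthetase beside a ribosomal protein of the mitochondrion, had 1890, 1653, 839 and 0 bases. HARS1/HARS2, the cytosolic and mitochondrial histidyl-tRNA synthetases, had 1055 and 732 bases in Kasumi-1 and, in MV4-11, 687 after knockdown, or 1.14 times the NC value. SURF1/SURF2, with an assembly factor of cytochrome c oxidase, had 1916, 944, 485 and 318 bases, and the peak of Kasumi-1 sh-ANP32B no longer covered either TSS. SIRT3/PSMD13, a mitochondrial deacetylase beside a proteasome subunit, had 1570, 974, 1043 and 898. TAP1/PSMB9, which serve antigen presentation, and COL4A1/COL4A2, the collagen chains of basement membranes, had 0 bases in all 4 libraries.

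Of the 635 pairs with a peak in both NC libraries, 3 (0.472%, 0.161 to 1.38) lost it in both lines, beside 1.13% of all promoter regions and 1.21% of single promoters. A peak was gained in both lines at 0 of 133 pairs, with a background of 0.0499%. RPUSD1/CHTF18, with a loader of the replication clamp, had 946 NC bases in Kasumi-1 and 1081 in MV4-11, with a GC content of 83.3%. HSDL1/DNAAF1 had 710 and 587 bases, with a GC content of 75.3%. MRE11/ANKRD49, with the nuclease of double-strand break repair, had 387 and 897 bases and a GC content of 58.3%. Counted by line, 8 of the 635 pairs (1.26%) lost it in Kasumi-1, with a background of 2.44%, and 134 (21.1%) in MV4-11, with a background of 23.6%. A peak was gained in Kasumi-1 and lost in MV4-11 at 4 of the 13 pairs with an NC peak in MV4-11 alone, with a background of 9.77%. The reverse was seen at 0 of the 203 pairs with an NC peak in Kasumi-1 alone, with a background of 0.648%. Across the 496 pairs with a peak in all 4 libraries, the log2 ratios of the lines had Pearson's r = 0.03 and Spearman's rho = -0.02, a description over pairs that share libraries and are not replicates.

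The largest decreases in Kasumi-1 were at TMEM276/KIFC2 (4470, 2462, 0 and 0 bases) and CCDC92/ZNF664 (1995, 0, 0 and 0). DEAF1/TMEM80, with a transcription factor of development, followed with 4396, 2659, 3054 and 1664, and ZNF319/USB1, with an exonuclease that trims U6 RNA, with 3019, 1334, 2132 and 1252. The last 2 pairs were lower in sh-ANP32B in both lines. The largest increases in Kasumi-1 were at NUP88/RPAIN, with a nucleoporin (1518, 2956, 322 and 494), POLE3/C9orf43, with a histone-fold subunit of DNA polymerase epsilon (1776, 3136, 1948 and 646), and BRME1/CC2D1A (1583, 2897, 0 and 0).

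In MV4-11 the largest decreases were at C11orf21/TSPAN32, with a tetraspanin of blood cells (4613, 4599, 4093 and 1990), and at RGS19/OPRL1, with the nociceptin receptor (4485, 4581, 2927 and 1300). POLR2L/TSPAN4, with a subunit of RNA polymerase II, had 3580, 3815, 3395 and 1772. SLC25A40/DBF4, with the activator of the CDC7 replication kinase, had 1724, 1882, 2846 and 1247. In Kasumi-1, C11orf21/TSPAN32 differed by -14 bases and the other pairs were 96 to 235 bases higher after knockdown. The largest increases were at TMEM53/ARMH1 (3096, 3616, 466 and 1578), ANKRD27/RGS9BP (3500, 3169, 0 and 960) and TDP2/ACOT13, with a phosphodiesterase that repairs topoisomerase adducts (2014, 2405, 0 and 880).

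Groups of genes were described by how many of their pairs kept a peak, where a pair belongs to a group if either gene does. Histone genes formed 14 pairs, 13 of them with a histone on both sides, and had the largest medians of the groups, with median NC values of 2920 bases for Kasumi-1 and 3543 for MV4-11. Of the 10 and 9 histone pairs with an NC peak, 0 were lost in either line and 0 were 1.5-fold lower. Over all pairs, 3.22% and 22.1% were lost, and 8.01% and 30.5% of the kept pairs were 1.5-fold lower. Both histone medians lie in the highest class of NC bases, in which 0 of 209 and 0 of 154 pairs of any kind were lost. The histone pairs lie in clusters on chromosome 6 and 1, and neighbouring pairs are not independent. Of the 27 pairs with a mitochondrial ribosomal protein, 26 had a peak in Kasumi-1 NC with 0 lost, and 23 had a peak in MV4-11 NC with 9 lost, beside 22.1% over all pairs. Their median NC bases in MV4-11 were 902.

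DNA repair and replication genes formed 51 pairs, which held 50 of the 157 genes listed (31.8%, beside 9.49% of all genes). In Kasumi-1, 47 had an NC peak and 1 was lost, and in MV4-11, 40 had an NC peak and 5 were lost. These counts, and those of the groups that follow, stand beside lost shares over all pairs of 3.22% in Kasumi-1 and 22.1% in MV4-11. Oxidative phosphorylation genes formed 29 pairs, of which 27 had a peak in Kasumi-1 NC with 0 lost and 23 in MV4-11 NC with 4 lost. Chaperones formed 14 pairs with 0 of 11 and 0 of 7 lost. Their median log2 ratio over the 7 in MV4-11 was -0.46, beside -0.27 over all pairs and -0.30 to 0.13 in the other groups with a peak. Some of the 14 share a gene, as HSPD1/HSPE1 and HSPD1/HSPE1-MOB4 do, and are not separate regions. Zinc finger genes formed 33 pairs, and 24 and 13 had an NC peak, of which 1 and 4 were lost. Solute carriers formed 18 pairs, with 1 of 16 and 2 of 15 lost, proteasome genes 10 pairs, with 0 of 8 and 1 of 6 lost, and tRNA synthetases 7 pairs, with 0 of 6 and 2 of 5 lost. The single antigen presentation pair and both collagen pairs had no peak. These counts are small, and differences between the groups were not tested.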

How the data were processed

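The deposited lists give, for each H3K27ac peak, its coordinates (hg38, counted from 1) and width in bases, with no height, score or q-value. Per the labels and the methods, the authors aligned CUT&Tag reads to hg38 with Bowtie2, removed duplicates with Picard, merged replicates with samtools and called peaks with MACS. The submitters' processing notes name Bowtie2 2.4.4 and MACS3 3.0, while the methods name other versions. Whether the 2 IgG libraries, not analysed here, served as control is not given in the sources used here. Merging before peak calling removes the replicate spread, and an unknown depth can move the number and width of peaks.

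Pairs, single promoters and exons came from GENCODE 44. Bases under peaks and overlaps of at least 1 base were computed with Python 3.11.15, numpy 2.4.6 and pandas 2.3.3. A peak present in NC and absent in sh-ANP32B was called lost, and the reverse gained. A difference of 1.5-fold in bases was counted. Interval and pairing code was tested on simulated data. With 1 library per group no test was run, and shares have Wilson 95% intervals (scipy 1.17.1). Background shares were taken over all promoter regions, that is the 984 pairs and the 18075 genes in no pair.

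Named pairs were textbook head-to-head pairs, those lost or gained in both lines, per line the 4 largest decreases and 3 largest increases, up to 5 pairs with peaks in 1 line alone, up to 4 acetylated on 1 gene only, and the 3 with the most bases. Other pairs named were chosen after their values were seen, as stated beside them. Sequences were taken from these pairs where the TSSs were at most 300 bases apart and a stretch of at least 60 bases held no exon. The members, groups, markers and motifs were chosen with earlier results of these data known. Alternatives were other windows, overlaps, peak filters and sets of pairs. Some of the named pairs, markers and sequences chosen this way are not reported here.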

Additional observations from a re-analysis of the deposited data

Results flagged for a closer look

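The lines differed in the sign of the median log2 ratio of bases under peaks at pairs, which was 0.01 in Kasumi-1 and -0.27 in MV4-11. The positive sign in Kasumi-1 did not hold with 1000 bases outside each TSS, where the median was 0.00. With 1 library per group this difference was not tested.

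POLE3/C9orf43 moved furthest in opposite directions, with 1360 bases more after knockdown in Kasumi-1 and a change of -1302 bases in MV4-11. In Kasumi-1 the peak still bridged both TSSs, and in MV4-11 it kept 646 bases and covered 1 TSS.

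At 4 of 13 pairs with an NC peak in MV4-11 alone, a peak was gained in Kasumi-1 and lost in MV4-11 (30.8%, 12.7 to 57.6), beside 9.77% of all promoter regions and 8.73% of single promoters. The reverse was seen at 0 of 203 pairs, beside 0.648%. LZIC/NMNAT1, with a nuclear enzyme of NAD synthesis, changed by 416 bases in Kasumi-1 and by -696 in MV4-11. INTS12/GSTCD, with a subunit of the Integrator complex, changed by 609 and -702 bases. MMUT/CENPQ, with the mitochondrial methylmalonyl-CoA mutase, changed by 439 and -493 bases. PSMD10/ATG4A, with the proteasome chaperone gankyrin, changed by 483 and -647 bases. These 4 pairs were picked out after their values were seen, and these differences between the lines were not tested.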

How the results depend on the processing

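Over 9 alternatives, 81 values of the summaries of pairs stayed within the 95% interval of the reported value and 35 moved outside it. Only the median log2 ratios could change sign, as shares cannot, and 0 of their values did. Keeping only peaks of at least 1000 bases gave shares with a peak of 68.1%, 64.3%, 33.5% and 21.4% (in the order Kasumi-1 NC, Kasumi-1 sh-ANP32B, MV4-11 NC, MV4-11 sh-ANP32B), bridged shares of 95.4%, 90.8%, 83.9% and 78.2%, lost shares of 10.6% in Kasumi-1 and 41.8% in MV4-11, and a median log2 ratio of -0.16 in MV4-11. Keeping the 10000 widest peaks of each list gave 59.5%, 55.3%, 34.7% and 27.4% with a peak, 96.1%, 93.0%, 83.6% and 74.8% bridged, 11.8% and 30.5% lost, and -0.19 in MV4-11. When every list was held to the largest minimum width and gap among them, 357 bases, this gave 62.2% and 48.8% of pairs with a peak and 63.9% and 53.1% bridged in the MV4-11 libraries. With TSSs at most 300 bases apart, 89.6%, 82.9%, 66.4% and 54.5% were bridged, 48.2% had a peak in MV4-11 sh-ANP32B and 26.4% were lost in MV4-11. With 1000 bases outside each TSS the Kasumi-1 median log2 ratio was 0.00, and after peaks with up to 1000 bases between them were joined, 83.2% were bridged in knockdown cells of Kasumi-1 and 63.6% in NC cells of MV4-11. Stricter peak filters turn narrower peaks into losses by construction. The lost share was lower at pairs than at single promoters for Kasumi-1 under 11 of 11 alternatives and for MV4-11 under 8 of 11, the exceptions being peaks of at least 1000 bases, the 10000 widest peaks and TSSs at most 300 bases apart. No paired analysis was possible because each group has 1 library, and for the same reason no replicate could be left out. Without heights, depths or replicates, a lost peak cannot be told apart from one just under the caller's threshold.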
